A study of Mus musculus with 6 samples.

Results

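The Slc25 genes encode the mitochondrial carrier family, and 42 of them were followed here in mouse hearts. Members were all genes whose probe sets carry a single annotated symbol made of Slc25a and a number, apart from Slc25a20 and Slc25a37, and each gene was represented by the probe set with the highest mean over the 6 arrays. The 42 genes have 90 of the 45101 probe sets on the array, and they are 42 of 18193 genes with 1 symbol. A brightness filter left 37 members for testing. Slc25a14, Slc25a18, Slc25a31, Slc25a41 and Slc25a54 fell below it and were not tested. Affymetrix arrays were hybridised with RNA from whole hearts, 2 arrays for each of 3 groups. The first group was apoE-deficient mice on the B6 background that received a daily 30 mg/kg of rosiglitazone, starting at 6 months of age and lasting 2 months, and the labels call their hearts failing. The second group was untreated apoE-deficient mice on the same background, and the third was untreated B6 mice without the deficiency. All mice were 8 months old and ate a chow with 7% fat and 0.15% cholesterol. ApoE, an apolipoprotein, helps clear lipid particles from the blood, and rosiglitazone, used against type 2 diabetes, is an agonist of PPAR gamma, a nuclear receptor of fat cell genes. The drug and the failing state occur in the same mice and cannot be told apart. Whether both arrays of a group stem from different animals, single or pooled, is not stated in the labels, and the p-values may therefore rest on technical spread alone.

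Mitochondrial carriers are small membrane proteins, most of them in the inner mitochondrial membrane, that exchange or import 1 class of solute each: ADP and ATP, phosphate, carboxylates, amino acids, nucleotides, cofactors or iron. In heart muscle the adenine nucleotide and phosphate carriers supply the ATP synthase and export its product, and the aspartate/glutamate and oxoglutarate carriers together form the malate-aspartate shuttle, which brings reducing equivalents of cytosolic NADH into the matrix. A few family members act elsewhere, such as Slc25a17 in peroxisomes and Slc25a46 in the outer mitochondrial membrane, and several are orphans with no settled substrate.

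Promoters of 3 members are shown because these genes had the largest decrease (Slc25a34), the largest decrease of a cofactor or nucleotide carrier (Slc25a33) and the largest increase (Slc25a1) in the treated hearts. Each sequence is the 250 bases before the RefSeq start of the gene on build GRCm38.p6, read 5′ to 3′ on the gene's strand, which is the minus strand for all 3. Slc25a34 is at chr4:141623835-141624084, Slc25a33 at chr4:149774268-149774517 and Slc25a1 at chr16:17928220-17928469. Capitals mark the nuclear receptor hexamer AGGTCA, or its reverse complement, and the E-box CACGTG.
Slc25a34: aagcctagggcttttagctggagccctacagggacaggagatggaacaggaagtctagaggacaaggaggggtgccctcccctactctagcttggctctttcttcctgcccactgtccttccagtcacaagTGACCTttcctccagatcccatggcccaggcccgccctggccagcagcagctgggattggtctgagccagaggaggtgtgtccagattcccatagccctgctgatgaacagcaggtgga
Slc25a33: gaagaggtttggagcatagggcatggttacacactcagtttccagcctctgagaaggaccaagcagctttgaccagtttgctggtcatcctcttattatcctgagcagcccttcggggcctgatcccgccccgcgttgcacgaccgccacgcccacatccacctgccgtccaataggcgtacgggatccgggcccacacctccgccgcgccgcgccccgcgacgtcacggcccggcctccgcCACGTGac
Slc25a1: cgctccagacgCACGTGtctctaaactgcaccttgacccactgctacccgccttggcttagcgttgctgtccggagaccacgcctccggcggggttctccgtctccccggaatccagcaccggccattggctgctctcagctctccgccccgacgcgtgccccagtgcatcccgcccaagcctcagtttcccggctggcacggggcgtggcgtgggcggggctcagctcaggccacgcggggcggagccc

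In the Slc25a34 promoter the hexamer lay on the opposite strand, 119 to 114 bases before the start. The E-box lay 8 to 3 bases before the start of Slc25a33 and 239 to 234 bases before that of Slc25a1. RefSeq promoters were matched for 33 of the 42 members and for 27025 genes in all. AGGTCA, searched on both strands, occurred in 4 of the 33 member promoters (12.1%: Slc25a34, Slc25a39, Slc25a45 and Slc25a47) and in 15.8% of all promoters of the same length. Its 7-letter form AAGGTCA, which contains it, occurred in 1 member promoter (3.03%, Slc25a34) and in 4.70% of all. A direct repeat of AGGTCA with 1 base between, the arrangement that PPAR and RXR dimers are known to bind, occurred in 0 of 33 member promoters and in 11 of all 27025 (0.0407%). CACGTG, which reads the same on both strands, occurred in 7 member promoters (21.2%: Slc25a1, Slc25a13, Slc25a14, Slc25a15, Slc25a31, Slc25a33 and Slc25a36) and in 6.86% of all. These matches describe the letters in these windows, and binding there was not measured.

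Values below are log2 levels of the normalized signal plus a pseudocount of 11.1, and differences are log2 differences ± limma's SE (n = 2 arrays in each group), which understates the change of dim probe sets. A call means an adjusted p under 0.05 from limma with Benjamini-Hochberg adjustment over all 27022 probe sets past the filter. The deposited signals were not on a common scale: their 2%-trimmed means were 263 to 341 on treated arrays, 126 to 130 on untreated apoE-deficient arrays and 149 to 175 on B6 arrays, so overall brightness and group cannot be told apart. Quantile normalization therefore preceded the test, and each direction is relative to it. The Apoe level itself checked the labels, at 6.23 ± 0.04 in treated and 5.77 ± 0.75 in untreated apoE-deficient hearts, against 11.88 ± 0.04 in B6 hearts (SD, n = 2 each). All 8 heart muscle markers passed the filter in these heart samples. Their summed normalized signal was 119706 to 123933 in treated, 120027 to 120827 in untreated apoE-deficient and 127953 to 128800 in B6 hearts. Quantile normalization holds the brightest probe sets near fixed values, so these sums do not measure heart muscle content. Their median difference, treated minus untreated apoE-deficient, was -0.81 (trimmed-mean), -0.63 (hybridization control), -0.47 (array medians centred), -0.20 (cyclic loess) and 0.41 (no scaling).

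Rosiglitazone-treated against untreated apoE-deficient hearts gave the widest movement among the carriers. The citrate carrier Slc25a1 had the largest increase and the orphan carrier Slc25a34 the largest decrease of the 37 tested members, and these were the 2 members past a 2-fold difference. With quantile normalization both ADP/ATP carriers were called higher, a direction that other scalings turned, and the 3 carriers of the malate-aspartate shuttle were called lower, a direction that turned for each of them in unscaled signals and for Slc25a13 also with array medians centred. Of the 37 members, 9 were higher (24.3%), 10 were lower (27.0%) and 18 did not pass. Of all 13236 genes tested, 11.4% were higher and 12.3% lower. The members' median difference was 0.04, against -0.03 over all genes, so calls in opposite directions left the median near 0. The median size of a difference, regardless of sign, was 0.33 over members and 0.25 over all genes. Bright probe sets pass more easily, and with the filter raised to the 60th percentile 89.2% of tested members and 76.5% of tested genes remained. There 27.3% of members were higher and 30.3% lower, against 15.1% and 17.7% of genes. In whole heart tissue, fewer cells of a type and less RNA per cell cannot be told apart.

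These calls rest on the scaling and on limma's intensity trend. Without the trend, 3 members were higher (Slc25a1, Slc25a25 and Slc25a35) and 3 lower (Slc25a33, Slc25a34 and Slc25a38). Of all genes 4.13% were then higher and 2.5% lower. With no scaling the median of all probe sets moved to 1.13, the treated arrays being the brightest. There 31 members were called higher and 0 lower, against 88.1% and 0.113% of all genes. Every lower call of a carrier in this comparison was lost or turned in that setting. Array medians centred moved the median of all probe sets to 0.24 and hybridization control scaling to 0.18.

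**Figure D1:**
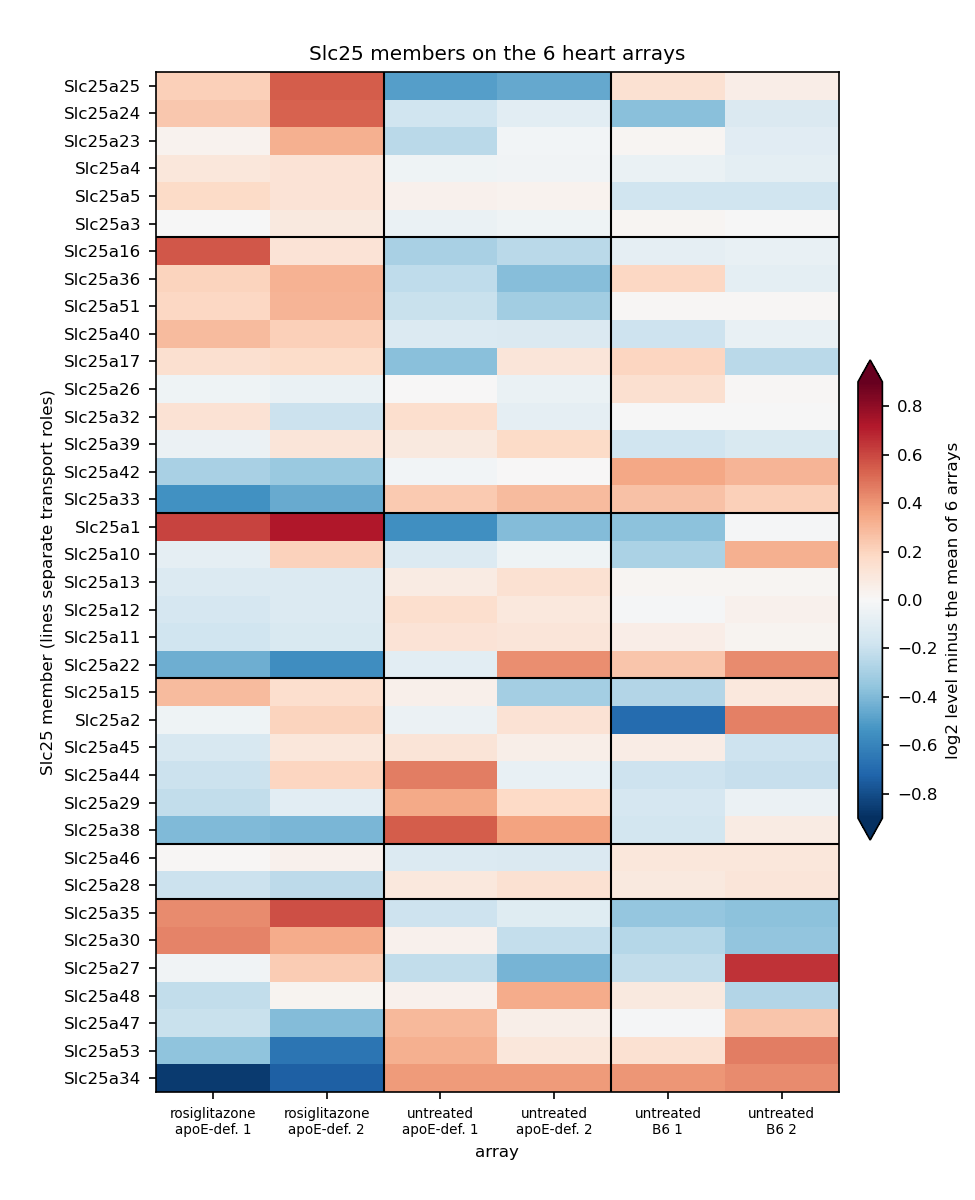
Each row is 1 of the 37 tested Slc25 members and each column 1 array, with the 2 rosiglitazone-treated arrays left, the 2 untreated apoE-deficient arrays in the middle and the 2 B6 arrays right; colour gives the log2 level minus the member's mean of 6 arrays, and black lines separate transport roles. Slc25a1 is the deepest red and Slc25a34 the deepest blue on both treated arrays, while Slc25a2 and Slc25a27 differ mostly between the 2 B6 arrays.

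**Figure D2:**
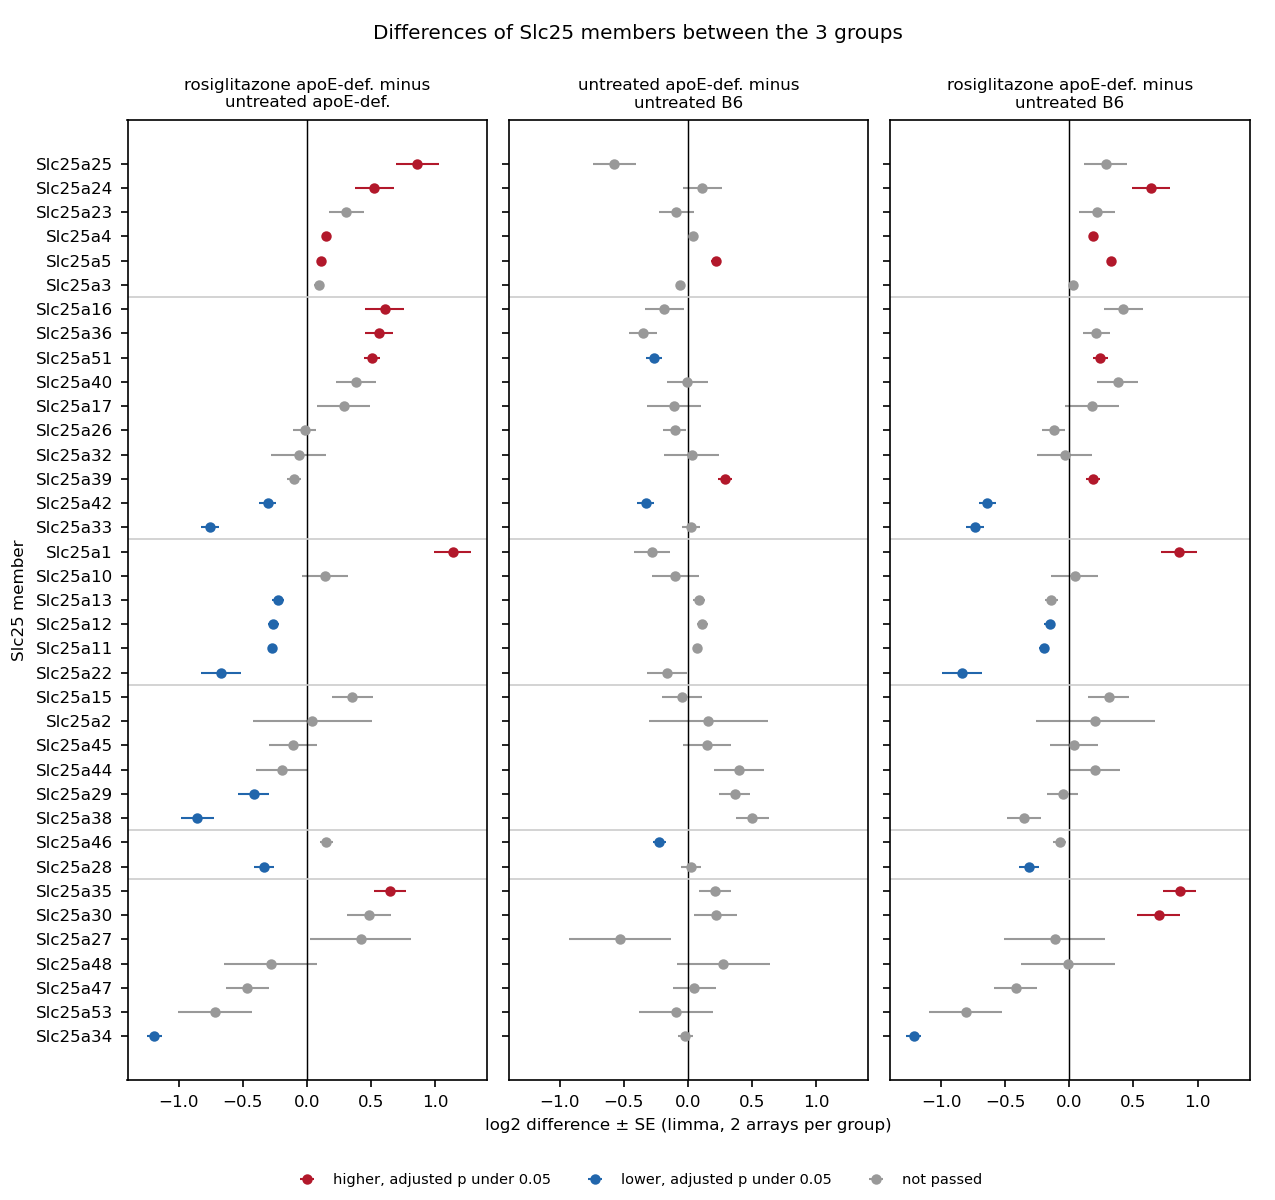
Points are log2 differences of the 37 tested members and bars their SE from limma (2 arrays per group), for treated minus untreated apoE-deficient (left), untreated apoE-deficient minus B6 (middle) and treated minus B6 (right), with adjusted p under 0.05 in red (higher) or blue (lower). The left panel holds 9 red and 10 blue points, the middle one 2 and 3, and the right one 8 and 7; with no scaling no member is called lower in the left or right panel.

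Among adenine nucleotide and phosphate carriers, 4 of 6 tested members were higher in treated than in untreated apoE-deficient hearts with quantile normalization, and 0 were lower. With the other scalings these counts were 2 higher and 3 lower (trimmed-mean), 3 and 3 (hybridization control), 3 and 2 (array medians centred), and 2 and 1 (cyclic loess). Slc25a4, the ADP/ATP carrier isoform of heart and muscle, had log2 levels of 14.23 and 14.25 in treated and 14.09 and 14.10 in untreated apoE-deficient hearts, against 14.07 and 14.04 in B6 hearts. Both treated arrays lay above all others. The difference was small, at 0.15 ± 0.03 (adjusted p = 0.00557), and it turned to -0.71 with trimmed-mean scaling, -0.53 with hybridization control scaling, -0.37 with array medians centred and -0.11 with cyclic loess. Slc25a5, the more widely expressed ADP/ATP carrier isoform, was at 13.13 and 13.08 in treated and 13.00 and 12.99 in untreated apoE-deficient hearts, against 12.78 and 12.78 in B6 hearts. The 3 groups did not overlap, with treated hearts highest and B6 hearts lowest. The treated-minus-untreated difference of 0.11 ± 0.03 (adjusted p = 0.0408) turned to -0.41, -0.23 and -0.07 with trimmed-mean scaling, hybridization control scaling and array medians centred. It was also no longer called with cyclic loess (0.02) or without treated replicate 1 (0.09), untreated replicate 1 (0.12), untreated replicate 2 (0.11), or either B6 array (0.11 each).

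Slc25a3, the phosphate carrier, had levels of 14.01 and 14.10 in treated and 13.95 and 13.97 in untreated apoE-deficient hearts, against 14.03 and 14.01 in B6 hearts. Its difference of 0.09 ± 0.04 did not pass (adjusted p = 0.0975), although it passed without treated replicate 1 (0.14). With scalings other than quantile normalization it was -0.78 (trimmed-mean), -0.60 (hybridization control), -0.44 (array medians centred) and -0.20 (cyclic loess). For the probe sets of Slc25a3, Slc25a4 and Slc25a5 the sign of the difference thus depended on the scaling.

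Slc25a25, Slc25a24 and Slc25a23 are calcium-regulated carriers that exchange ATP-Mg for phosphate. Slc25a25 was at 7.35 and 7.68 in treated and 6.64 and 6.67 in untreated apoE-deficient hearts, against 7.27 and 7.19 in B6 hearts. Treated and B6 hearts were both above the untreated apoE-deficient ones, with no overlap between groups. The treated-minus-untreated difference was 0.86 ± 0.17 (adjusted p = 0.00689); it was not called without treated replicate 2 (0.69), and the mean over the gene's probe sets gave -0.005. A second probe set of Slc25a25 differed by -0.60 ± 0.50, which did not pass. Slc25a24 had levels of 7.89 and 8.18 in treated and 7.47 and 7.55 in untreated apoE-deficient hearts, against 7.27 and 7.52 in B6 hearts. Both treated arrays were above the other 4, but the difference of 0.53 ± 0.15 (adjusted p = 0.0383) lost its call without any 1 of the 4 arrays compared, at 0.67 and 0.38 without treated replicates 1 and 2 and 0.48 and 0.57 without untreated replicates 1 and 2. The mean over the 2 probe sets of Slc25a24, 0.10, was not called either. Slc25a23 differed by 0.31 ± 0.14 and did not pass. The 2 remaining genes of this role, Slc25a31, an ADP/ATP carrier known from testis, and Slc25a41, were among the 5 members below the filter.

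Cofactor and nucleotide carriers were divided, with 3 of 10 tested members higher and 2 lower. Slc25a33, a pyrimidine nucleotide carrier, had log2 levels of 9.07 and 9.16 in treated and 9.85 and 9.90 in untreated apoE-deficient hearts, against 9.88 and 9.83 in B6 hearts. Treated hearts were low, and the other 4 arrays lay close together. The difference was -0.76 ± 0.07 (adjusted p = 0.000118); of 19 alternative settings only no scaling (0.47) turned it, and 18 kept the direction and the call. Slc25a36, the other pyrimidine nucleotide carrier of the list, was at 9.25 and 9.36 in treated and 8.82 and 8.66 in untreated apoE-deficient hearts, against 9.23 and 8.96 in B6 hearts. Untreated apoE-deficient hearts were the low group there, and treated hearts lay just above B6. Its difference of 0.56 ± 0.11 (adjusted p = 0.00619) was called on 1 of its 3 probe sets, and the mean over probe sets, 0.20, was not called.

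Slc25a51, which imports NAD into human mitochondria, had levels of 10.91 and 11.03 in treated and 10.52 and 10.41 in untreated apoE-deficient hearts, against 10.73 and 10.73 in B6 hearts. The groups did not overlap, and the untreated apoE-deficient arrays were lowest. The treated-minus-untreated difference was 0.51 ± 0.06 (adjusted p = 0.000554) and kept its call in 18 of 19 settings, all but the one without the intensity trend. Slc25a42, a carrier of coenzyme A, was at 9.39 and 9.35 in treated and 9.66 and 9.69 in untreated apoE-deficient hearts, against 10.03 and 9.99 in B6 hearts. Levels thus formed 3 separate steps, with treated hearts lowest. The treated-minus-untreated difference was -0.31 ± 0.06 (adjusted p = 0.00943); it turned to 0.04 with array medians centred and 0.93 with no scaling, and was not called with hybridization control scaling (-0.11), with the mean over probe sets (-0.33) or without untreated replicate 2 (-0.29). Slc25a16, a carrier linked to coenzyme A import, had levels of 8.40 and 7.96 in treated and 7.55 and 7.60 in untreated apoE-deficient hearts, against 7.76 and 7.77 in B6 hearts. The treated arrays were above the rest but far from each other. The difference of 0.61 ± 0.15 (adjusted p = 0.0222) dropped to 0.39 and lost its call without treated replicate 1, and lost it also without untreated replicate 1 (0.58) or 2 (0.63).

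Slc25a39 and Slc25a40 are carriers of glutathione, the main thiol antioxidant of the matrix. Slc25a39 was at 12.75 and 12.91 in treated and 12.89 and 12.97 in untreated apoE-deficient hearts, against 12.62 and 12.66 in B6 hearts. Treated and untreated apoE-deficient arrays overlapped, and both B6 arrays lay below them. The treated-minus-untreated difference of -0.10 ± 0.05 did not pass, while its 4 other probe sets differed by 0.32, 0.04, 0.61 and 1.21, and 2 of them were called higher (0.32 and 0.61). Slc25a40 differed by 0.38 ± 0.16 and did not pass. Slc25a17 (0.29 ± 0.21), the S-adenosylmethionine carrier Slc25a26 (-0.02 ± 0.09) and the folate and FAD carrier Slc25a32 (-0.07 ± 0.21) did not pass either.

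Carboxylate, aspartate and glutamate carriers were lower in 4 of 6 tested members and higher in 1. With trimmed-mean scaling 4 were lower, with cyclic loess 3, with hybridization control scaling 2, with array medians centred 1 and with no scaling 0. The higher one was Slc25a1, which exports citrate, the carbon source of cytosolic fatty acid synthesis. Its log2 levels were 8.57 and 8.68 in treated and 7.41 and 7.57 in untreated apoE-deficient hearts, against 7.59 and 7.95 in B6 hearts. Both treated arrays stood above the other 4. The difference was 1.14 ± 0.14, or 2.20-fold (adjusted p = 0.000691), and it kept its direction and call under all 19 alternative settings, with a range from 0.99 to 2.42.

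Slc25a11, Slc25a12 and Slc25a13 carry the exchanges of the malate-aspartate shuttle. Slc25a11, the oxoglutarate/malate carrier, had levels of 12.21 and 12.25 in treated and 12.51 and 12.50 in untreated apoE-deficient hearts, against 12.45 and 12.41 in B6 hearts. The treated arrays were lowest. Its difference of -0.27 ± 0.04 (adjusted p = 0.00107) was called in every setting except no intensity trend, where it was not called, and no scaling, where it turned (0.64). Slc25a12, the aspartate/glutamate carrier of heart, muscle and brain, was at 11.59 and 11.62 in treated and 11.89 and 11.84 in untreated apoE-deficient hearts, against 11.73 and 11.78 in B6 hearts. Treated hearts were again below all others, and the difference was -0.26 ± 0.04 (adjusted p = 0.00266); array medians centred (-0.10) and the mean over probe sets (-0.23) ended the call, and leaving signals unscaled turned it (0.78). Slc25a13, the aspartate/glutamate carrier best known from liver, had levels of 10.78 and 10.78 in treated and 10.98 and 11.04 in untreated apoE-deficient hearts, against 10.92 and 10.92 in B6 hearts. The order of the groups was the same as for Slc25a12. The difference of -0.23 ± 0.05 (adjusted p = 0.0107) turned to 0.03 with array medians centred and 0.91 with no scaling, and was not called with hybridization control scaling (-0.13), with cyclic loess (-0.14) or without untreated replicate 2 (-0.20). With quantile normalization all 3 shuttle carriers were thus lower by a similar small amount, and treated hearts had the lowest level in each.

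Slc25a22, a glutamate carrier, was at 8.03 and 7.91 in treated and 8.38 and 8.89 in untreated apoE-deficient hearts, against 8.72 and 8.90 in B6 hearts. Untreated replicate 1 lay between the treated and the B6 arrays. The difference of -0.67 ± 0.16 (adjusted p = 0.0170) moved to -0.41 and lost its call without untreated replicate 2, and it also lost it without treated replicate 1 (-0.73) or 2 (-0.61), with hybridization control scaling (-0.40) and with array medians centred (-0.28), and turned with no scaling (0.61). The dicarboxylate carrier Slc25a10 had levels of 8.24 and 8.53 in treated and 8.20 and 8.28 in untreated apoE-deficient hearts, against 8.04 and 8.64 in B6 hearts. Its groups overlapped and the difference of 0.14 ± 0.18 did not pass. Slc25a18, the other glutamate carrier, was below the filter.

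Carriers of other amino acids gave 2 lower members of 6 tested and 0 higher, while with no scaling 0 were lower and 4 higher. Slc25a38 imports glycine, which the first step of heme synthesis uses. Its levels were 7.51 and 7.50 in treated and 8.45 and 8.27 in untreated apoE-deficient hearts, against 7.74 and 7.98 in B6 hearts. Treated hearts were lowest and untreated apoE-deficient hearts highest, with no overlap. The difference was -0.85 ± 0.13 (adjusted p = 0.00190), and of the 19 settings 18 kept the direction and the call while leaving signals unscaled turned it (0.42). Slc25a29, a carrier of basic amino acids, was at 7.68 and 7.81 in treated and 8.24 and 8.08 in untreated apoE-deficient hearts, against 7.75 and 7.85 in B6 hearts. Treated and B6 arrays overlapped, below the untreated apoE-deficient ones. Its difference of -0.41 ± 0.12 (adjusted p = 0.0423) lost its call in 14 of 19 settings, among them every left-out array (-0.49 to -0.34), and turned with no scaling (0.87). The ornithine carriers Slc25a15 (0.35 ± 0.16) and Slc25a2 (0.04 ± 0.46), the branched-chain amino acid carrier Slc25a44 (-0.20 ± 0.20) and Slc25a45 (-0.11 ± 0.19) did not pass.

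Slc25a28, the mitochondrial iron importer mitoferrin-2, had levels of 8.71 and 8.67 in treated and 9.0 and 9.04 in untreated apoE-deficient hearts, against 8.99 and 9.01 in B6 hearts. Treated hearts were low and the 2 untreated groups overlapped. The difference of -0.33 ± 0.08 (adjusted p = 0.0171) turned to 0.05 with array medians centred and 0.93 with no scaling, and was not called with hybridization control scaling (-0.09) or without any 1 of treated replicate 1 (-0.35), its partner replicate 2 (-0.32) and untreated replicate 2 (-0.31). Slc25a46, an outer membrane protein of mitochondrial shape, was at 10.40 and 10.43 in treated and 10.27 and 10.26 in untreated apoE-deficient hearts, against 10.49 and 10.49 in B6 hearts. Untreated apoE-deficient hearts were lowest, and treated hearts lay between the other groups. The treated-minus-untreated difference of 0.15 ± 0.05 did not pass (adjusted p = 0.0746), although a second probe set was called higher at 0.30 ± 0.08. Beside the carriers of glycine and iron stand red cell markers, of which both tested genes fell in the treated hearts (neither was called with no scaling), Alas2, the erythroid enzyme that starts heme synthesis, at -1.46 and Hbb-b2, a globin, at -1.06, with Hba-a1 below the filter. The summed normalized signal of the 3 red cell markers was 100 to 143 in treated and 318 to 347 in untreated apoE-deficient hearts, against 751 to 767 in B6 hearts. The part of red cells in the carrier differences was not tested.

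Of the uncoupling-protein-like and orphan carriers, 1 of 7 tested members was higher and 1 lower. Slc25a34, whose promoter is printed above, had log2 levels of 9.72 and 9.85 in treated and 10.97 and 10.97 in untreated apoE-deficient hearts, against 10.98 and 11.01 in B6 hearts. The 4 untreated arrays of either genotype lay within 0.04 of each other, and both treated arrays were more than 1 log2 unit below them. The difference was -1.19 ± 0.06, a level 0.438 times that of untreated apoE-deficient hearts (adjusted p = 3.46e-06), and of 19 settings only no scaling (-0.03) ended the call. Slc25a35, its close relative, went the other way, at 8.08 and 8.24 in treated and 7.47 and 7.55 in untreated apoE-deficient hearts, against 7.31 and 7.29 in B6 hearts. The groups did not overlap, and treated hearts were highest. The difference of 0.65 ± 0.13 (adjusted p = 0.00699) was called in 18 of 19 settings, all but the one without treated replicate 2 (0.57).

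Slc25a30, a carrier best known from kidney, had levels of 7.47 and 7.36 in treated and 7.06 and 6.81 in untreated apoE-deficient hearts, against 6.77 and 6.67 in B6 hearts. Treated hearts were highest without overlap, yet the treated-minus-untreated difference of 0.48 ± 0.17 did not pass (adjusted p = 0.0763). It was called with trimmed-mean scaling (0.61), hybridization control scaling (0.77) and array medians centred (0.85). Slc25a47 (-0.47 ± 0.17), known from liver, and Slc25a53 (-0.72 ± 0.29) did not pass. Slc25a27 (0.42 ± 0.40), an uncoupling protein known from brain, and Slc25a48 (-0.28 ± 0.36), linked to choline import, did not pass either. Slc25a14 and Slc25a54 were below the filter.

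Untreated apoE-deficient against B6 hearts showed few carrier differences, and none past 2-fold. Slc25a39 and Slc25a5 were higher in the apoE-deficient hearts, and Slc25a42, Slc25a51 and Slc25a46 were lower. Of the 37 tested members, 2 were higher (5.41%) and 3 lower (8.11%), against 3.85% higher and 4.66% lower of all 13236 genes. The median difference was 0.02 over members and 0.00 over all genes, and the median size of a difference was 0.15 over members and 0.19 over all genes. Slc25a42 differed by -0.33 ± 0.06 (adjusted p = 0.0180), from the array values given above. Slc25a39 differed by 0.29 ± 0.05 (adjusted p = 0.0159), while its 4 other probe sets differed by -0.12 to 0.19 and none of them was called. Slc25a51 differed by -0.27 ± 0.06 (adjusted p = 0.0351), and its other 2 probe sets by 0.13 and -1.78, the second of them called. The difference of Slc25a46 was -0.23 ± 0.05 (adjusted p = 0.0358) and that of Slc25a5 0.21 ± 0.03 (adjusted p = 0.00714). Slc25a38 narrowly missed at 0.50 ± 0.13 (adjusted p = 0.0528), and Slc25a25 at -0.58 ± 0.17 had an adjusted p = 0.0768.

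Each of these 5 calls was lost without any 1 of the 4 arrays compared, except that Slc25a5 kept its call without untreated apoE-deficient replicate 2. Without untreated apoE-deficient replicates 1 and 2, and without B6 replicates 1 and 2, in that order, Slc25a42 was at -0.31, -0.35, -0.31 and -0.35, Slc25a39 at 0.33, 0.25, 0.27 and 0.31, Slc25a51 at -0.32, -0.21, -0.27 and -0.26, and Slc25a46 at -0.23, -0.22, -0.23 and -0.23. Slc25a5 was at 0.21 without untreated apoE-deficient replicate 1, and at 0.21 and 0.22 without B6 replicates 1 and 2. Without the intensity trend 0 members were called in either direction, but of all genes too only 0.0227% were higher and 0.00756% lower. With hybridization control scaling, which moved the median of all probe sets to 0.11, 8 members were higher and 0 lower, against 11.1% and 2.31% of all genes.

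Rosiglitazone-treated against B6 hearts differ in the drug, the failing state and the genotype together. Slc25a34 was again the lowest, at -1.21 ± 0.06 (adjusted p = 3.63e-06), the single member past 2-fold, and Slc25a35 and Slc25a1 were the highest. Of the 37 tested members, 8 were higher (21.6%) and 7 lower (18.9%), against 8.78% higher and 9.87% lower of all genes. The median difference was 0.04 over members and -0.03 over all genes, with a median size of 0.22 in both. This comparison shares its treated arrays with the first and its B6 arrays with the second, so the values of 1 member are not independent between them. Slc25a35 differed by 0.86 ± 0.13 (adjusted p = 0.00201) and was called in all 19 alternative settings, and Slc25a1 differed by 0.85 ± 0.14 (adjusted p = 0.00390).

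Slc25a33 was lower by -0.74 ± 0.07 (adjusted p = 0.000166), Slc25a42 by -0.64 ± 0.06 (adjusted p = 0.000252) and Slc25a22 by -0.84 ± 0.16 (adjusted p = 0.00737), and with no scaling these turned to 0.16, 0.26 and 0.08. The call of Slc25a22 was also lost with hybridization control scaling (-0.48) or without B6 replicate 2 (-0.75). Slc25a30, which had not passed against untreated apoE-deficient hearts, was higher by 0.70 ± 0.17 (adjusted p = 0.0225), but lost its call without either treated array (0.65 and 0.75) or either B6 array (0.75 and 0.65). Slc25a24 was higher by 0.64 ± 0.15 and lost its call without treated replicate 2 (0.50) or B6 replicate 1 (0.51). Slc25a5 was higher by 0.33 ± 0.03 (adjusted p = 0.000266), which turned to -0.03 with trimmed-mean scaling. Slc25a4 was higher by 0.18 ± 0.03, which turned to -0.55, -0.23, -0.36 and -0.12 with trimmed-mean, hybridization control, median and cyclic loess scaling. With the mean over probe sets the calls of Slc25a42 (-0.48), Slc25a30 (0.28), Slc25a24 (0.48) and Slc25a4 (0.12) were lost. So were those of Slc25a12 (-0.13) and Slc25a51 (0.13), which are described below.

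The remaining calls against B6 were smaller. Slc25a28 differed by -0.31 ± 0.08 (adjusted p = 0.0265), turned with hybridization control scaling (0.04) and no scaling (0.60), and lost its call without treated replicate 1 (-0.33), treated replicate 2 (-0.30), B6 replicate 1 (-0.32) or B6 replicate 2 (-0.31). Slc25a11 differed by -0.20 ± 0.04 (adjusted p = 0.00698), turned with no scaling (0.51) and lost its call with hybridization control scaling (-0.07), cyclic loess (-0.12) or without B6 replicate 1 (-0.18). Slc25a12 differed by -0.15 ± 0.04 and turned with hybridization control scaling (0.07) and no scaling (0.64). It lost its call in 12 of the 19 settings, among them each left-out array (-0.18 to -0.13). Slc25a51 was higher by 0.24 ± 0.06 and lost its call without treated replicate 2 (0.18), B6 replicate 1 (0.24) or B6 replicate 2 (0.25). Slc25a39 was higher by 0.19 ± 0.05, moved to 0.11 without treated replicate 2, turned to -0.12 with trimmed-mean scaling and lost its call in 12 settings, among them each left-out array but treated replicate 1. Slc25a16, not called here at 0.42 ± 0.15, passed without treated replicate 2 (0.64).

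Across the 3 comparisons, Slc25a5, Slc25a42 and Slc25a51 were called in each. A further 11 members were called in 2 comparisons and 8 in 1. The 15 members called in none were Slc25a2, Slc25a3, Slc25a10, Slc25a15, Slc25a17, Slc25a23, Slc25a26, Slc25a27, Slc25a32, Slc25a40, Slc25a44, Slc25a45, Slc25a47, Slc25a48 and Slc25a53. A miss does not show equal levels, since the SE of a member's difference ran from 0.03 for Slc25a4 to 0.46 for Slc25a2.

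Of the 42 members, 20 have 1 probe set on the array and 22 have several, up to 8 for Slc25a5. Probe sets of 1 gene did not always move together in treated against untreated apoE-deficient hearts. The 8 probe sets of Slc25a5 differed by -0.08 to 0.82, and 5 of them were called higher. Many of these carry the array's suffix for probes that may also match similar transcripts, so their signal can include other RNAs. The 4 probe sets of Slc25a4 differed by 0.15, 0.07, 0.29 and 0.05, and 2 were called. For Slc25a51 the other 2 probe sets differed by 0.16 and 1.63, all on the same side as the representative probe set. The 5 probe sets of Slc25a29 were all below 0, at -0.41, -0.11, -0.26, -0.34 and -0.11, with 1 called, and the other 2 of Slc25a36 were at 0.03 and -0.004. Slc25a1, Slc25a33, Slc25a34, Slc25a35 and Slc25a38, whose calls held in at least 18 of 19 settings, each have a single probe set, so no second measurement on the array bears on them. Slc25a51, with 18 of 19, has 3 probe sets, of which 2 were called.

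**Figure D3:**
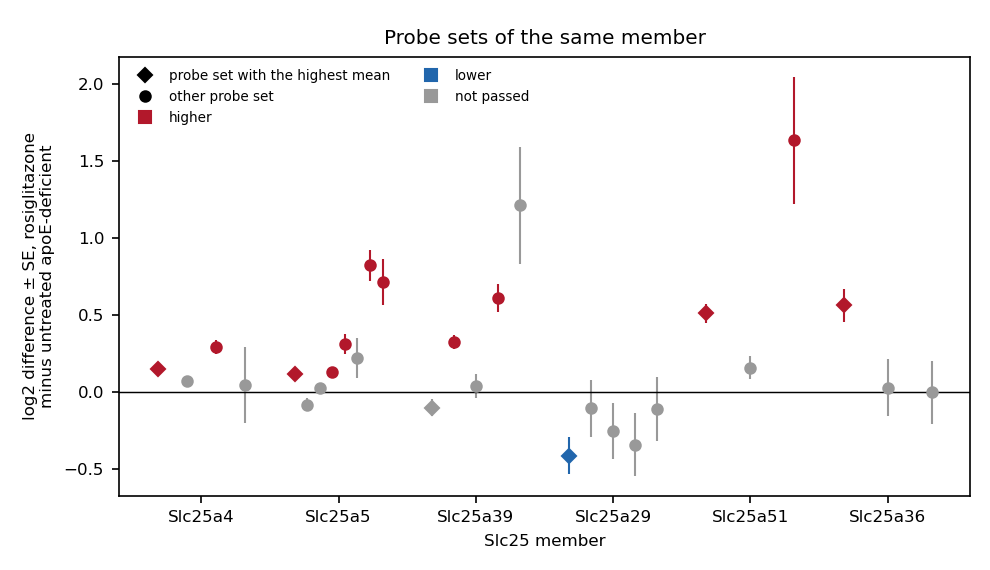
Log2 differences of treated minus untreated apoE-deficient hearts for the probe sets past the filter of 6 Slc25 members, with bars for the SE (2 arrays per group); diamonds mark the representative probe set, circles the others, and red and blue mark calls. Slc25a5 spreads from -0.08 to 0.82 and Slc25a39 from -0.10 to 1.21 over their probe sets, and with other scalings the diamonds of Slc25a4 and Slc25a5 fall below 0.

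The scaling of the arrays moved bright and dim members differently. Members with mean log2 levels near 14 (Slc25a3 and Slc25a4) had small positive differences with quantile normalization and negative ones with the other 4 scalings tried, and Slc25a5 turned negative with 3 of the 4. Slc25a34 stayed below 0 and Slc25a1 above 0 with all 5 scalings and with no scaling.

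**Figure D4:**
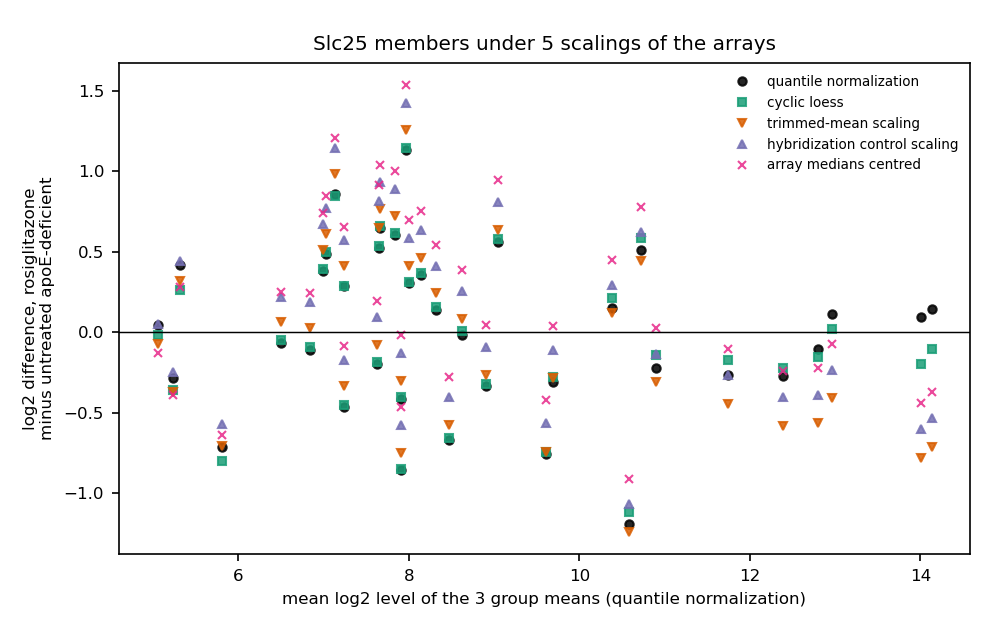
Log2 differences of treated minus untreated apoE-deficient hearts for the 37 tested members (vertical axis) against the mean log2 level of the member's probe set (horizontal axis), under 5 scalings of the arrays. At the bright end Slc25a4 lies at 0.15 with quantile normalization and at -0.71 with trimmed-mean scaling, while Slc25a34, near 10.6, lies below -0.9 under each of the 5.

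Other transport genes of mitochondria were listed to set beside the carriers. Of 23 tested, 6 were higher (26.1%) and 5 lower (21.7%) in treated than in untreated apoE-deficient hearts, against 11.4% and 12.3% of all genes. In untreated apoE-deficient against B6 hearts 0 were higher and 3 lower (13%), against 3.85% and 4.66% of all genes. In treated against B6 hearts 5 were higher (21.7%) and 4 lower (17.4%), against 8.78% and 9.87% of all genes. Ucp1 is 1 of the 6 and 1 of the 5 higher genes. Its levels in both untreated groups were at the dim end of the scale, and its calls follow from the filter, as given below. With trimmed-mean scaling the counts for treated against untreated apoE-deficient hearts became 3 higher and 10 lower, against 13.2% and 12.9% of all genes. With no scaling they became 21 higher and 0 lower, against 88.1% and 0.113% of all genes. Sfxn1, a serine transporter, was higher in treated than in untreated apoE-deficient hearts by 1.01 (adjusted p = 0.000400) and was called with each of the 4 other scalings (1.02 to 1.41). Tspo was higher by 0.705 (adjusted p = 0.000900) and was likewise called with each of the 4 (0.714 to 1.06). Ppif, the cyclophilin of the permeability pore, was lower (-0.69, adjusted p = 1.55e-05), as were Smdt1, a subunit of the calcium uniporter (-0.47), and the outer membrane pore Vdac1 (-0.31). These 3 kept their call with each of the 4 other scalings and turned with no scaling (0.37, 0.55 and 0.27). Ckmt2, the mitochondrial creatine kinase that works beside the ADP/ATP carriers, was higher by 0.56 (adjusted p = 1.19e-05), but like those carriers it depended on the scaling, with values of -0.30 to 0.25 under the other 4. The pyruvate carrier subunit Mpc1 (0.22) and Vdac3 (0.26) also changed sign between scalings, down to -0.24 and -0.18, and Micu2, a uniporter regulator (-0.29), up to 0.02. Ucp3, an uncoupling protein of muscle, was lower in treated than in untreated apoE-deficient hearts (-0.62), a call kept in 2 of the 4 other scalings (-0.61 to -0.22) and turned with no scaling (0.66). It was lower too in untreated apoE-deficient than in B6 hearts (-1.21, adjusted p = 0.00257), where every scaling kept the sign.

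The respiratory chain and ATP synthase hold the complexes that the adenine nucleotide and phosphate carriers serve. Of 79 tested subunits, 16 were higher (20.3%) and 28 lower (35.4%) in treated than in untreated apoE-deficient hearts with quantile normalization, with a median difference of -0.06. Of all genes 11.4% were higher and 12.3% lower. Lower calls of subunits rose in number with the other 4 scalings. They were 71 with trimmed-mean scaling, 67 with hybridization control scaling, 60 with array medians centred and 50 with cyclic loess, against 0, 0, 5 and 6 higher. Of all genes 12.9%, 6.44%, 3.73% and 11.5% were lower in these 4 scalings, in that order, and 13.2%, 23.2%, 30.9% and 12.6% higher. No scaling gave 72 subunits higher and 0 lower, against 88.1% and 0.113% of all genes. The subunits' median ranged from -0.70 (trimmed-mean) to -0.20 (cyclic loess) under the 4 scalings, and was 0.53 with no scaling. For untreated apoE-deficient against B6 hearts 4 subunits were higher (5.06%) and 8 lower (10.1%) with quantile normalization, against 3.85% and 4.66% of all genes. With hybridization control scaling 42 were higher and 0 lower, against 11.1% and 2.31% of all genes. For treated against B6 hearts 10 were higher (12.7%) and 29 lower (36.7%) with quantile normalization, against 8.78% and 9.87% of all genes.

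Markers of other cell types also differed between treated and untreated apoE-deficient hearts. Ucp1, a carrier of this family by sequence that is known from brown fat and lies outside the symbol rule, had log2 levels of 12.60 and 12.61 in treated and 3.83 and 3.99 in untreated apoE-deficient hearts, against 5.74 and 4.22 in B6 hearts. Its mean in each untreated group lay below the filter cutoff of 4.99, as did those of the brown fat gene Otop1 and the airway genes Scgb1a1, Scgb3a2 and Bpifa1. These 5 genes passed the filter through their treated arrays, so their calls follow from that selection and are not read as results. The airway gene Foxj1 and the lymphocyte gene Ms4a1 also had both untreated means below the cutoff, and neither was called. Of the 9 tested brown fat markers Cidea, Elovl3 and Dio2 were called higher, beside Ucp1 and Otop1, whose calls follow from the filter. Ppargc1a, a coactivator of mitochondrial genes, was called lower at -0.58, a call kept in 3 of the 4 other scalings and turned with no scaling (0.62). The other scalings called 2 or 3 brown fat markers lower, and no scaling 0. The summed normalized signal of the brown fat list was 38363 to 39252 in treated, 29330 to 29669 in untreated apoE-deficient and 28265 to 28956 in B6 hearts. Cox7a1 (12330 to 12680 over the 6 arrays) and Cox8b (13510 to 14660) made up most of each sum and did not pass. Of 5 tested white fat markers 4 rose, with Lep below the filter, and their sum with Lep was 26559 to 27355 in treated, 8220 to 8419 in untreated apoE-deficient and 9065 to 9739 in B6 hearts. Sums of the 6 airway markers were 14642 to 15479 in treated, 100 to 119 in untreated apoE-deficient and 85 to 107 in B6 hearts. Scgb1a1, Scgb3a2 and Bpifa1 are part of these sums, which were not tested.

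All 5 fibroblast markers rose, with sums of 19006 to 19519 in treated, 14603 to 14615 in untreated apoE-deficient and 15888 to 15962 in B6 hearts. Their counts were 4 higher with each of the 4 other scalings, with 1 lower in trimmed-mean and hybridization control scaling. Endothelial markers summed to 3770 to 3868 in treated, 7517 to 7555 in untreated apoE-deficient and 7224 to 7275 in B6 hearts. The water channel Aqp1 alone had 580 to 616, 4859 to 4874 and 4222 to 4261 of these sums, so their fall is that of 1 gene. Of the 5 endothelial genes Kdr (0.91) and Pecam1 (0.28) rose, and Tie1 (-0.41, a call kept in 2 of the 4 other scalings) and Aqp1 fell. Aqp1 fell most, at -3.00, and was called lower with each of the 4 other scalings. Lymphocyte markers summed to 1364 to 1669 in treated, 293 to 364 in untreated apoE-deficient and 266 to 279 in B6 hearts, with Cd3e below the filter. Ighm alone had 1172 to 1456, 83.3 to 128 and 79.9 to 124 of these sums. Of the 4 tested, the immunoglobulin gene Ighm rose by 3.52 and Cd8a of cytotoxic T cells fell, at -1.16, which turned when signals were left unscaled (0.05). Macrophage markers summed to 7540 to 7563 in treated, 7410 to 7566 in untreated apoE-deficient and 5968 to 6196 in B6 hearts. Of these 5 genes Csf1r was called higher (0.25) and Adgre1 lower (-0.61), calls that 3 of the 4 other scalings kept, and Adgre1 turned in unscaled signals (0.66). Of the 2 tested skeletal muscle markers Acta1 was called higher (0.26), with values of -0.26 to 0.13 under the 4 other scalings, and Myh1, Myh4, Tnnt3 and Myog were below the filter. Of 8 heart muscle markers 3 rose and 4 fell with quantile normalization, while 0 were higher and 7 lower with trimmed-mean scaling and 5 higher and 0 lower with no scaling. The part of these cells in the carrier differences was not tested.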

How the data were processed

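Each probe set has 1 linear intensity on each array in the deposited table. Per the labels' protocols, total RNA was extracted with a column kit and made into biotinylated cRNA. Per the submitters' processing notes the software was GCOS; its version, background correction and scaling factors are each not given in the sources used here. No detection calls entered the analysis.

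Signals of 45037 non-control probe sets were quantile-normalized on the linear scale, a pseudocount of 11.1 (their 25th percentile) was added, and log2 was taken. The test took the 27022 probe sets whose mean over the arrays exceeded the 40th percentile (4.99), which cover 13236 genes. Limma 3.58.1 in R 4.3.3 fitted the 3 groups in 1 model (lmFit, then eBayes with an intensity trend), with 3 residual and a median of 5.97 prior degrees of freedom, Benjamini-Hochberg adjustment over all tested probe sets, and an adjusted p under 0.05 as the threshold. The test was tried on simulated data with known changes. Precision is limited by the 6 arrays.

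The platform annotation, which can be old, gave 1 symbol for 34945 probe sets, several for 932 and none for 9160. Of those with 1 symbol, 34741 were matched by gene number to the RefSeq gene table of GRCm38.p6 and took its symbol. This changed 0 member symbols. Promoters are RefSeq sequences of the same build, and the deposited table gives no coordinates. Every member is named. Values of each array are given for up to 12 called members per comparison with no overlap between groups and for a panel of heart carriers. The members, lists and panel were chosen with earlier results of these data known. Alternatives were 5 other treatments of the array scale, 2 pseudocounts, 2 filters, the mean over probe sets, a fit of only 2 groups, no intensity trend, a replicate block and leaving out each array.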

Additional observations from a re-analysis of the deposited data

How the results depend on the processing

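Scaling was the choice that moved most, and precision is limited by 2 arrays per group. Of treated against untreated apoE-deficient hearts, the 9 members higher became 15 with array medians centred, 31 with no scaling and 3 without the intensity trend, and the 10 lower became 0 with no scaling and 3 without the trend. Of untreated apoE-deficient against B6 hearts, the 2 higher became 8 with hybridization control scaling, 1 with the mean over probe sets, and 0 with no scaling or without the trend. The 3 lower became 0 with hybridization control scaling, 5 with array medians centred, 1 with no scaling, 1 with no filter and 0 without the trend. With the mean over probe sets Slc25a39 (0.03), Slc25a5 (0.12) and Slc25a42 (-0.14) lost their calls, so the 1 higher there was a different member. With no scaling all 5 calls of this comparison were lost, so the 1 lower there was also a different member. Of treated against B6 hearts, the 8 higher became 4 with trimmed-mean scaling, 13 with hybridization control scaling, 26 with no scaling, 4 with the mean over probe sets and 1 without the trend, and the 7 lower became 0 with no scaling and 3 without the trend. Leaving out 1 array in turn gave 6 to 8 higher and 5 to 9 lower in the first comparison, 0 to 2 higher and 0 to 3 lower in the second, and 4 to 7 higher and 4 to 6 lower in treated against B6 hearts. Unscaled signals differ in brightness by construction, and fewer arrays enter each left-out fit; the cause of the other changes was not tested. Of all genes, 11.4% were higher and 12.3% lower in the first comparison with quantile normalization, against 30.9% and 3.73% with array medians centred, 23.2% and 6.44% with hybridization control scaling, and 88.1% and 0.113% with no scaling. In the second the same settings gave 3.85% and 4.66%, against 1.57% and 9.49%, 11.1% and 2.31%, and 0.257% and 5.65%. For treated against B6 hearts they gave 8.78% and 9.87%, against 14.2% and 4.57%, 30.8% and 2.67%, and 75.5% and 0.227%. Without the trend, all-gene shares in the 3 comparisons were 4.13% and 2.5%, 0.0227% and 0.00756%, and 1.94% and 0.892%. The mean over probe sets gave 3.44% and 3.14% in the second and 7.35% and 8.24% in treated against B6 hearts. No filter gave 1.95% and 2.36% in the second, and trimmed-mean scaling 8.66% and 10.7% in treated against B6 hearts. The median of all probe sets for untreated apoE-deficient against B6 and for treated against B6 hearts moved to 0.108 and 0.283 with hybridization control scaling, -0.129 and 0.11 with array medians centred, and -0.316 and 0.809 with no scaling.

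A difference is listed here as turned if its sign changed and it was called with quantile normalization or in the other setting. Sign changes of differences called in neither are not listed. By this rule no difference of untreated apoE-deficient minus B6 turned. With trimmed-mean scaling, the log2 differences that turned were, for treated minus untreated apoE-deficient Slc25a3 -0.78, Slc25a4 -0.71 and Slc25a5 -0.41, and for treated minus B6 Slc25a3 -0.73, Slc25a4 -0.55, Slc25a5 -0.034 and Slc25a39 -0.12. With hybridization control scaling, the log2 differences that turned were, for treated minus untreated apoE-deficient Slc25a3 -0.60, Slc25a4 -0.53 and Slc25a5 -0.23, and for treated minus B6 Slc25a3 -0.41, Slc25a4 -0.23, Slc25a12 0.065, Slc25a28 0.036 and Slc25a46 0.22. With array medians centred, the log2 differences that turned were, for treated minus untreated apoE-deficient Slc25a3 -0.44, Slc25a4 -0.37, Slc25a5 -0.07, Slc25a13 0.026, Slc25a26 0.39, Slc25a28 0.048 and Slc25a42 0.04, and for treated minus B6 Slc25a3 -0.54 and Slc25a4 -0.36. With cyclic loess, the log2 differences that turned were, for treated minus untreated apoE-deficient Slc25a3 -0.20 and Slc25a4 -0.11, and for treated minus B6 Slc25a3 -0.31 and Slc25a4 -0.12. With no scaling, the log2 differences that turned were, for treated minus untreated apoE-deficient Slc25a11 0.64, Slc25a12 0.78, Slc25a13 0.91, Slc25a22 0.61, Slc25a26 1.27, Slc25a28 0.93, Slc25a29 0.87, Slc25a32 1.13, Slc25a33 0.47, Slc25a38 0.42, Slc25a39 0.66, Slc25a42 0.93, Slc25a44 1.08, Slc25a45 1.13 and Slc25a47 0.80, and for treated minus B6 Slc25a11 0.51, Slc25a12 0.64, Slc25a13 0.70, Slc25a22 0.076, Slc25a26 0.80, Slc25a28 0.60, Slc25a29 0.85, Slc25a32 0.84, Slc25a33 0.16, Slc25a42 0.26 and Slc25a46 0.79. With the mean over probe sets, the log2 differences that turned were, for treated minus untreated apoE-deficient Slc25a25 -0.005 and Slc25a39 0.42.

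Replicate numbers are shared between the groups, but same-numbered arrays did not deviate together (r = -0.006 for treated and untreated apoE-deficient, 0.033 for treated and B6, 0.020 for untreated apoE-deficient and B6), so the numbers do not pair the arrays. With the replicate block the counts were 9 higher and 9 lower, 2 and 3, and 8 and 7, and the 1 call lost was that of Slc25a29.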
